A study of Mus musculus with 6 samples.

Results

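The proteasome genes described here are the rows of the deposited table whose symbol begins with Psm, a letter from a to g and a digit, and whose type is protein_coding. The rule found 47 of the 12366 genes listed. They fall into 14 subunits of the core particle (7 alpha and 7 beta), 3 immunoproteasome subunits, 17 subunits of the regulatory particle (9 of the base and 8 of the lid), 6 activators or inhibitors and 7 assembly chaperones. Liver RNA came from male C57BL/6 mice on chow, 22 weeks old and fasted for 48 h, that were either Acss2-/- (Acss2-KO, 3 libraries) or wild type (WT, 3 libraries). How the Acss2 deletion was made is not in the labels. Nor do they say whether the 3 libraries of a genotype came from different mice, so the p-values rest on library-to-library spread that may be partly technical.

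The proteasome is the barrel-shaped protease that degrades proteins tagged with ubiquitin. Its core particle stacks alpha rings, which gate the entrance, on beta rings, which hold the active sites. A regulatory particle, made of a base with ATPases that unfold the substrate and a lid that removes the ubiquitin chain, caps the core. Cells that respond to interferon replace the constitutive catalytic subunits Psmb5, Psmb6 and Psmb7 with the immunoproteasome subunits Psmb8, Psmb9 and Psmb10, which change the peptides made for MHC class I. The transcription factor NFE2L1 is known to drive proteasome genes when proteasome activity is short.

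Values are CPM, reads scaled to a common library total. The estimated depth was 21.8 to 30.8 M reads per library, so 5 CPM stood for 109 to 154 reads. Acss2, the targeted gene, read 1.37, 3.56 and 2.35 CPM in Acss2-KO, against 74.0, 81.0 and 73.5 CPM in WT. No libraries shared identical values. Coordinates are as deposited and match GRCm38. Differences are log2 fold changes, Acss2-KO over WT, on log2(CPM + 1), from limma over the 9355 genes that averaged 5 CPM or more. The p-values were adjusted over these genes by the Benjamini-Hochberg method, with a threshold of 0.05. Over all of them the median log2 fold change was -0.12, and small differences are to be read against that shift.

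The immunoproteasome subunits and the interferon-inducible activator PA28 were lower in Acss2-KO livers, and no subunit of the constitutive core passed the test. Of 17 regulatory particle subunits 3 were higher, or 17.6%, against 13.4% of all tested genes called higher. None of the 17 was called higher without Acss2-KO replicate 3, WT replicate 1 or WT replicate 2. All 47 members averaged 5 CPM or more and were tested. In all, 5 were higher and 8 lower in Acss2-KO, where the background over all tested genes was 13.4% higher and 23.1% lower. The 13 members that changed are 27.7% of the family, against 36.5% of all tested genes, so the family as a whole was not called more often than other genes. Leaving out Acss2-KO replicate 1, 2 or 3 gave 1, 4 and 0 members higher and 5, 13 and 4 lower, and leaving out WT replicate 1, 2 or 3 gave 1, 0 and 2 higher and 6, 5 and 5 lower. The genotypes did not overlap for 23 members (48.9%), 8 higher and 15 lower in Acss2-KO, against 52.9% of all tested genes (20.1% higher and 32.8% lower). The median log2 fold change of the members was -0.16, close to that of all tested genes.

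**Figure D1:**
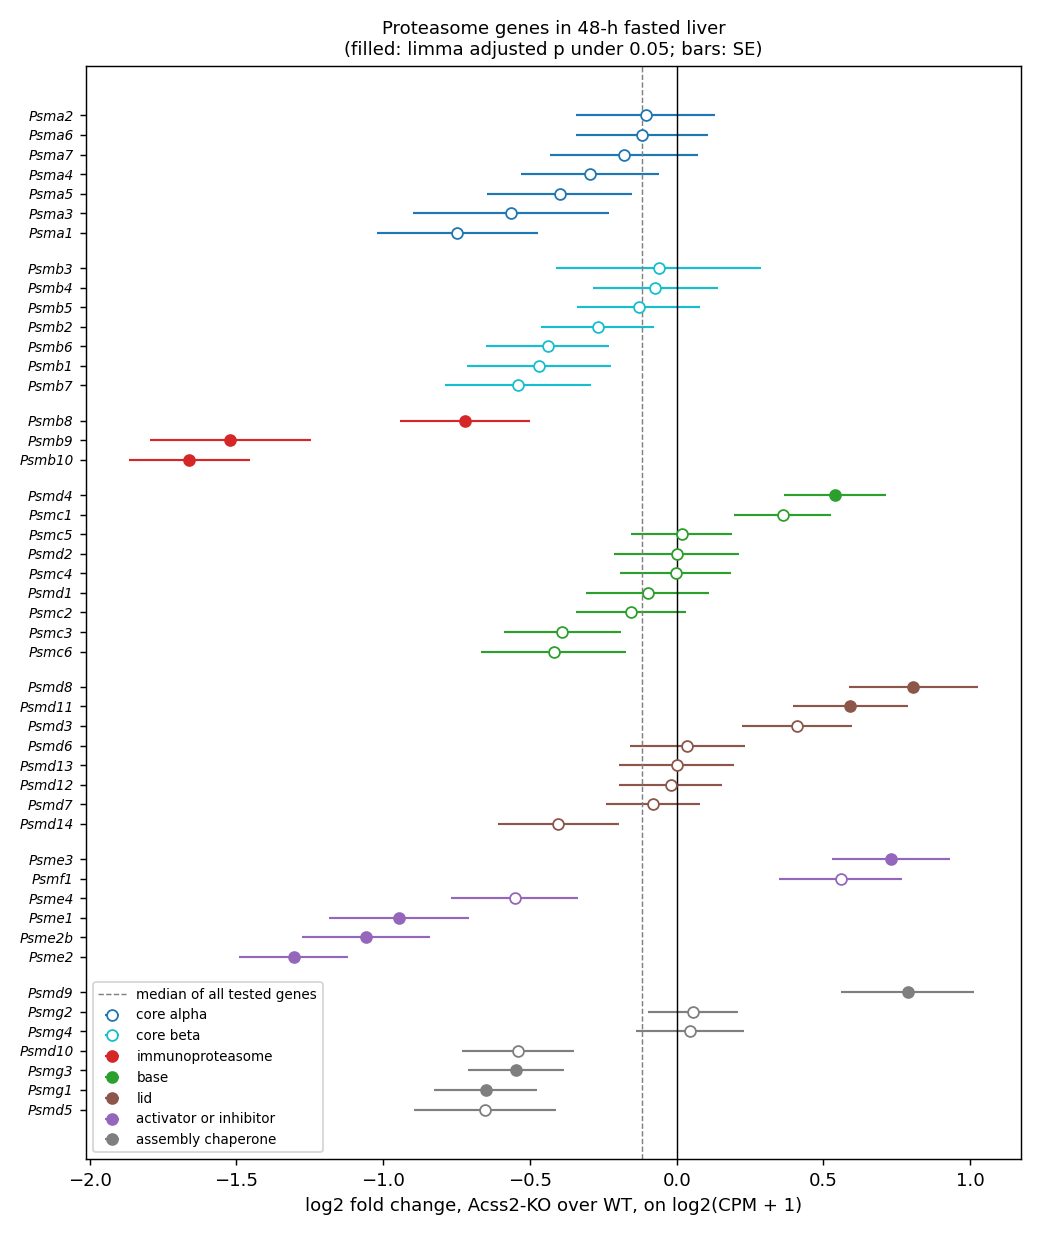
Log2 fold change of each of the 47 proteasome genes (x axis, Acss2-KO over WT on log2(CPM + 1), bars are SE), grouped and coloured by role, with filled points for limma adjusted p under 0.05 and a dashed line at the median of all tested genes. Psmb10, Psmb9 and the PA28 genes Psme2, Psme2b and Psme1 lie furthest to the left, and the 14 core subunits lie below 0 without passing.

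All 3 immunoproteasome subunits fell. Psmb10, the trypsin-like site of the immunoproteasome (ENSMUSG00000031897, chromosome 8, 105935728 to 105938392), was at 5.82, 7.31 and 5.70 CPM in Acss2-KO, against 17.5, 28.3 and 21.1 CPM in WT. The highest Acss2-KO library stood well below the lowest WT library. The means were 6.27 ± 0.90 CPM in Acss2-KO and 22.3 ± 5.47 CPM in WT (SD, n = 3 each), a log2 fold change of -1.66 (SE 0.21, limma adjusted p = 0.00107). Psmb9, the caspase-like position of the constitutive ring taken over in the immunoproteasome (chromosome 17, 34181988 to 34187764), was at 5.10, 8.94 and 5.10 CPM in Acss2-KO, against 14.6, 27.5 and 18.6 CPM in WT. Here too the genotypes stood apart (log2 fold change -1.52, SE 0.27, limma adjusted p = 0.00429). Psmb8, the chymotrypsin-like site (chromosome 17, 34197721 to 34201454), was at 8.23, 12.2 and 10.9 CPM in Acss2-KO, against 14.6, 23.3 and 16.2 CPM in WT. The gap between the groups was smaller for this subunit (-0.72, SE 0.22, limma adjusted p = 0.0321). Psmb9 and Psmb10 passed under each alternative in which they were tested (16 each), with limma adjusted p-values of at most 0.0274 and 0.0123. Psmb8 did not pass without Acss2-KO replicate 1 (limma adjusted p = 0.0947), Acss2-KO replicate 3 (0.0827), WT replicate 2 (0.112) or WT replicate 3 (0.0655), nor with median-of-ratios scaling (0.0541) or quantile normalisation (0.0727).

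**Figure D2:**
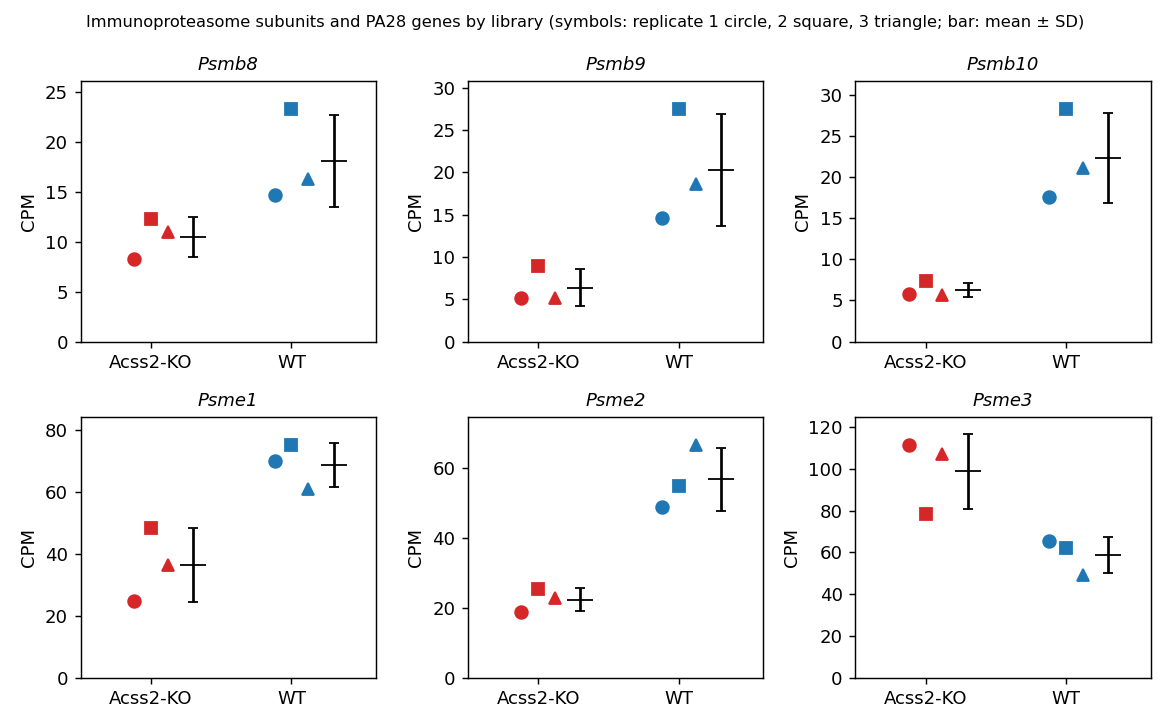
CPM (y axis) of the immunoproteasome subunits and of the PA28 genes Psme1, Psme2 and Psme3 in each of the 3 Acss2-KO and 3 WT libraries, with the mean ± SD beside them. For Psmb8, Psmb9, Psmb10, Psme1 and Psme2 every Acss2-KO library lies below every WT library, and for Psme3 every one lies above.

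Each immunoproteasome subunit replaces a constitutive one, so the balance within a library is a ratio that does not depend on scaling by a library factor. Per 100 CPM of Psmb7, Psmb10 was at 10.9, 10.1 and 9.41 CPM in Acss2-KO, against 24, 37.1 and 16.0 CPM in WT. Per 100 CPM of Psmb6, Psmb9 was at 5.67, 7.69 and 5.29 CPM in Acss2-KO, against 11.9, 23.2 and 10.7 CPM in WT. Per 100 CPM of Psmb5, Psmb8 was at 11.1, 12.8 and 12.8 CPM in Acss2-KO, against 17.6, 29.3 and 13.5 CPM in WT. In all 3 ratios the Acss2-KO libraries lay below the WT libraries, with mean log2 ratios 2.40-fold lower for Psmb10, 2.34-fold for Psmb9 and 1.57-fold for Psmb8. The exact two-sided permutation test gave p = 0.1 for each ratio and 0.1 after adjustment over the 3, the smallest value that 3 against 3 libraries allows, so the design cannot take a ratio past 0.05. WT replicate 2 had the highest ratio of each kind. Without it the difference for Psmb8 over Psmb5 was -0.34 on the log2 scale, against -0.65 with all libraries. Per kb of annotated exon, Psmb8 and Psmb10 averaged 3.82 and 4.94 CPM in Acss2-KO, against 6.59 and 17.6 CPM in WT. On the same scale their constitutive counterparts Psmb5 and Psmb7 averaged 92.3 and 51.2 CPM in Acss2-KO and 102 and 77.1 CPM in WT, so transcripts of these constitutive subunits stood above those of the immunoproteasome subunits in both genotypes. Psmb9 had no exon length.

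**Figure D3:**
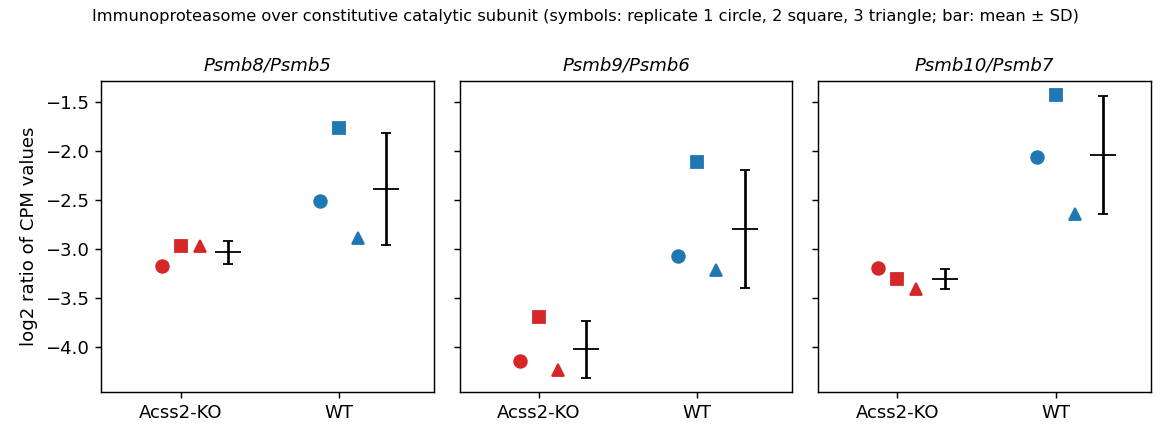
Log2 ratio of the CPM of each immunoproteasome subunit to that of the constitutive subunit it replaces (y axis), by library, with the mean ± SD. The Acss2-KO libraries lie below the WT libraries in each panel, with the narrowest gap between the groups for Psmb8 over Psmb5, where WT replicate 3 stands just above Acss2-KO replicates 2 and 3.

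Genes of the interferon response moved with the immunoproteasome. Of 13 tested genes on an interferon list, 12 were lower and none higher, beside the background of 23.1% lower, with a median log2 fold change of -1.90 against -0.12 over all tested genes. The list was chosen with earlier results of these data known, so its share is a description and not a test. Irf1, a transcription factor known to act on immunoproteasome genes, was at 12.4, 12.4 and 8.23 CPM in Acss2-KO, against 22.3, 45.6 and 24.3 CPM in WT (log2 fold change -1.35, SE 0.28, limma adjusted p = 0.00757). Irf9, Irf7 and Irgm1 had log2 fold changes of -2.09, -2.28 and -1.80. Of 12 MHC class I pathway genes, 2 were lower and none higher (16.7%, against 36.5% of all tested genes in either direction and 23.1% lower). B2m, the light chain of MHC class I, was at 509, 765 and 613 CPM in Acss2-KO, against 1160, 1552 and 1305 CPM in WT (-1.10, SE 0.23, limma adjusted p = 0.00722), and the peptide editor gene Tapbpl had a log2 fold change of -0.75. Tapbpl did not pass without Acss2-KO replicate 3 (limma adjusted p = 0.0579) or WT replicate 2 (0.0582). Tap1, a subunit of the peptide transporter that shares a bidirectional promoter with Psmb9, was at 30.5, 32.9 and 28.4 CPM in Acss2-KO, against 35.8, 51.3 and 21.4 CPM in WT. These groups overlapped, and Tap1 did not pass (-0.15, limma adjusted p = 0.695). The deposited spans of Psmb9 and Tap1 overlap by 212 bp, and the sources used here do not say how reads there were counted.

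Leukocytes and Kupffer cells, the macrophages of the liver, carry the immunoproteasome at high levels, so their markers are given beside it. Of 11 tested markers of Kupffer cells and other macrophages, 4 (Cd5l, Lyz2, Clec4f and Adgre1) fell and none rose. That is 36.4% of the list, against 36.5% of all tested genes called in either direction and 23.1% called lower. All 11 had a log2 fold change below 0 (median -1.08). The count of 4 was 2, 3 and 1 on leaving out Acss2-KO replicate 1, 2 or 3, and 4, 1 and 1 on leaving out WT replicate 1, 2 or 3. It was 2 with median-of-ratios scaling or quantile normalisation and 3 with upper-quartile scaling. Cd5l (limma adjusted p = 0.0854), Lyz2 (0.0519) and Clec4f (0.1) were not called without WT replicate 2. The 12 markers listed summed to 146, 232 and 213 CPM in Acss2-KO, against 264, 771 and 386 CPM in WT. The 3 immunoproteasome subunits summed to 19.1, 28.5 and 21.7 CPM in Acss2-KO, against 46.8, 79.0 and 56.0 CPM in WT. In both sums WT replicate 2 was the highest WT library and Acss2-KO replicate 2 the highest Acss2-KO library. The latter is not particular to these sums, as Acss2-KO replicate 2 was the highest Acss2-KO library for 37 of the 47 members, among them all 14 core subunits. Nor is the rank of WT replicate 2. In WT the listed interferon genes summed to 314, 567 and 285 CPM and the sinusoidal endothelial markers to 208, 304 and 191 CPM. Sums of the core subunits and of the stellate and hepatocyte markers were highest in WT replicate 3. Of 12 lymphocyte and leukocyte markers chosen, 6 were listed in the deposited table and 3 were tested. Ptprc fell (3.01 ± 0.367 CPM in Acss2-KO and 10.4 ± 5.33 CPM in WT, SD, n = 3 each, log2 fold change -1.40, limma adjusted p = 0.00896). That is 1 of 3, or 33.3%, near the 36.5% of all tested genes called in either direction, with 23.1% called lower. The 6 listed markers summed to 26.2, 22.7 and 26.3 CPM in Acss2-KO, where replicate 2 was the lowest, against 30.8, 81.2 and 44.6 CPM in WT. The B cell marker Cd79b and the killer cell marker Nkg7 were listed at 0 in the 3 Acss2-KO libraries and in 1 WT library. The part of these cells in the immunoproteasome result was not tested, and in bulk tissue fewer cells of a type and less RNA per cell cannot be told apart.

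The promoters of genes that fell together are shown for reading against these values, with one constitutive counterpart, Psmb6. RefSeq promoters on GRCm38.p6, windows of 300 bases around the start site, were matched by symbol for 40 of the 47 members. Both strands were searched for the STAT site TTCNNNGAA, the interferon response element core (GAAA, any 2 bases, GAAA) and the antioxidant response element core TGACNNNGC, which NFE2L1 and NFE2L2 bind with small Maf proteins. Capitals mark every match to these 3, and no printed promoter holds overlapping matches.
Psmb8 (chr17:34197945-34198244, plus strand): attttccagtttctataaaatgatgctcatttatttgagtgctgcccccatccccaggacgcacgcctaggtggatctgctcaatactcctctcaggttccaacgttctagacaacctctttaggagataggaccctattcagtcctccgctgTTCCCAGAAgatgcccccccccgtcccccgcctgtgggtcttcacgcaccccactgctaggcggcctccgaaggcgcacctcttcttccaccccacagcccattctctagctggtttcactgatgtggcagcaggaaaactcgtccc
Psmb9 (chr17:34187281-34187580, minus strand): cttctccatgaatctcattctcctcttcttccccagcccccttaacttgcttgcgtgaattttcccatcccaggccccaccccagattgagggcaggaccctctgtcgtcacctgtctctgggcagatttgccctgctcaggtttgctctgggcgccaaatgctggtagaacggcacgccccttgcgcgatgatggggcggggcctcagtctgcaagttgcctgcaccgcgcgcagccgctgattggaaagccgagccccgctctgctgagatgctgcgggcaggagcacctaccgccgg
Psmb10 (chr8:105938343-105938642, minus strand): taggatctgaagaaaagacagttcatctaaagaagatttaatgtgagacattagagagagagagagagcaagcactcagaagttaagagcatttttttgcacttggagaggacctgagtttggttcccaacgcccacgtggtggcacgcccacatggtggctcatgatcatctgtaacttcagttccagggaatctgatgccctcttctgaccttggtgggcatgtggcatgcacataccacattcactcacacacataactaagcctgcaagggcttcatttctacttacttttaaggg
Psme1 (chr14:55578244-55578543, plus strand): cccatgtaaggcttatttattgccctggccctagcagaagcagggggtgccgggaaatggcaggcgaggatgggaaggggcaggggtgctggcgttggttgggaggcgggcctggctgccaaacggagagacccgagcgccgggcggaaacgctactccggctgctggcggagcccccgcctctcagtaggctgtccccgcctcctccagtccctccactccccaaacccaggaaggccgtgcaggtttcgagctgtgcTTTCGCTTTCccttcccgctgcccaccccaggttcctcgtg
Psmb6 (chr11:70525107-70525406, plus strand): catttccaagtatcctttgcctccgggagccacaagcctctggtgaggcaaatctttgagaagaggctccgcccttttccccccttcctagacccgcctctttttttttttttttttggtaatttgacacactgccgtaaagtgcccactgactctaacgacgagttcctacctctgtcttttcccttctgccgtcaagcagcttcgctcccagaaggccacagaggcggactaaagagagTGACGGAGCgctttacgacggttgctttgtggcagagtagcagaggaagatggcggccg

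The STAT site in the Psmb8 promoter begins at position -97 from the RefSeq start site. Positions are counted from RefSeq start sites, which need not be the deposited starts. The printed windows of Psmb8, Psmb9 and Psme1 lie wholly inside the deposited spans of these genes. Such letters stood in 3 of the 40 members and in 8.3% of all 32851 promoters. The interferon element in Psme1 begins at position 10, and stood in 5 of 40 members (12.5%) and in 3.44% of all promoters. Those 5 were Psme1, which was lower, Psmd4 and Psmd9, which were higher, and Psmb3 and Psmg4, which did not pass. The members had 43 promoters and were counted by gene, while the background was counted by promoter. The antioxidant element in Psmb6 begins at position -9, and stood in 6 of 40 members and in 12.4% of all promoters. The CCAAT box, searched on both strands, stood in 13 of 40 members and in 37.4% of all promoters. The windows of Psmb9 and Psmb10 held none of the 3 capitalised motifs, which says only that these letters are not in these windows.

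PA28 is an activator ring that opens the core without ATP, and its alpha and beta subunits are interferon-inducible while the gamma subunit is nuclear. Psme2, the beta subunit (chromosome 14, 55587441 to 55591113), was at 18.9, 25.5 and 22.8 CPM in Acss2-KO, against 48.8, 55.0 and 66.7 CPM in WT. The groups stood far apart (log2 fold change -1.31, SE 0.19, limma adjusted p = 0.00175). This call held under all 17 alternatives. Psme1, the alpha subunit (chromosome 14, 55578123 to 55581529), was at 24.6, 48.2 and 36.3 CPM in Acss2-KO, against 70.0, 75.1 and 61.0 CPM in WT. Its groups were also apart (-0.95, SE 0.24, limma adjusted p = 0.0163), but Psme1 did not pass without Acss2-KO replicate 3 (0.0543) or WT replicate 2 (0.0508). Psme2b, a short second locus of the beta subunit (chromosome 11, 48945354 to 48946190), averaged 5.53 ± 1.57 CPM in Acss2-KO and 12.4 ± 1.80 CPM in WT (SD, n = 3 each, -1.06, limma adjusted p = 0.0072). Its sequence resembles Psme2, so reads of the pair may be shared and its value is uncertain.

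Psme3, the gamma subunit (chromosome 11, 101316213 to 101323537), went the other way. It was at 111, 78.3 and 107 CPM in Acss2-KO, against 65.3, 62.3 and 49.2 CPM in WT. Every Acss2-KO library stood above every WT library (log2 fold change 0.73, SE 0.20, limma adjusted p = 0.0221). Psme3 did not pass without Acss2-KO replicate 1 (0.0642), Acss2-KO replicate 3 (0.091), WT replicate 2 (0.0512) or WT replicate 3 (0.0574). The remaining regulators did not pass with all libraries and no further scaling. Psme4, the large activator PA200, was at 90.5, 148 and 117 CPM in Acss2-KO, against 181, 181 and 152 CPM in WT (-0.55, limma adjusted p = 0.0733). It passed as lower when Acss2-KO replicate 2 was left out (0.0227). Psmf1, the regulator PI31 first known as an inhibitor, was at 59.3, 43.1 and 52.4 CPM in Acss2-KO, against 38.9, 39.7 and 26.4 CPM in WT (0.56, limma adjusted p = 0.064). Psmf1 passed as higher with the 3 other scalings (0.0265 to 0.0281) and without Acss2-KO replicate 2 (0.036). Neither gene's libraries overlapped between the genotypes.

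None of the 14 constitutive core subunits passed the test, beside 36.5% of all tested genes. All 14 had a log2 fold change below 0, between -0.75 for Psma1 and -0.06 for Psmb3, with a median of -0.28. The groups overlapped for 10 of the 14. They did not for 4 (28.6%), all lower in Acss2-KO, against 52.9% of all tested genes in either direction and 32.8% lower. WT replicate 3 was the highest of the 6 libraries for all 14 subunits, at a median of 1.59 times the mean of the other WT libraries. The same quotient had a median of 0.915 over all tested genes and 1.11 over the 2301 shortest of them by exon length (57 to 2352 bp). Those shortest genes, 26 proteasome members among them, had a median log2 fold change of -0.247, against -0.118 over all tested genes. The core median of -0.28 is to be read beside both. The core subunits summed to 1154, 1575 and 1361 CPM in Acss2-KO, against 1430, 1406 and 2300 CPM in WT. Without WT replicate 3 only 8 of the 14 subunits had a log2 fold change below 0, and the median was -0.14. With median-of-ratios scaling 11 were below 0, with upper-quartile scaling 12 and with quantile normalisation 10, so their common sign did not hold under these settings. Acss2-KO replicate 2 was the highest Acss2-KO library for all 14.

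Among the alpha subunits, Psma1 was at 45.6, 89.3 and 69.6 CPM in Acss2-KO, against 96.3, 97 and 146 CPM in WT (log2 fold change -0.75, SE 0.27, limma adjusted p = 0.0593). It passed without Acss2-KO replicate 2 (limma adjusted p = 0.0184). Psma2 was at 82.1, 89.9 and 82.1 CPM in Acss2-KO, against 75.1, 76.1 and 133 CPM in WT, and its groups overlapped (-0.11, limma adjusted p = 0.747). Of the constitutive catalytic subunits, Psmb7 (62.2 ± 9.63 CPM in Acss2-KO and 93.6 ± 33.0 CPM in WT, SD, n = 3 each) had a log2 fold change of -0.54 and Psmb6 (101 ± 13.7 CPM in Acss2-KO and 138 ± 30.6 CPM in WT) one of -0.44. Their groups did not overlap, and limma adjusted p-values were 0.118 and 0.126. Psmb5, the chymotrypsin-like site and the main target of proteasome inhibitors, was at 74.0, 95.7 and 85.6 CPM in Acss2-KO, against 83.3, 79.3 and 120 CPM in WT (-0.13, limma adjusted p = 0.65). Psmb3, a structural beta subunit, was at 68.6, 81.6 and 68.1 CPM in Acss2-KO, against 55.3, 54.6 and 143 CPM in WT. WT replicate 3 alone stood above the Acss2-KO libraries there, and without it the log2 fold change of Psmb3 was 0.39 (limma adjusted p = 0.0768). Per kb of exon, alpha subunits averaged between 26.3 (Psma3) and 98.9 CPM (Psma6) in Acss2-KO and between 35.4 (Psma2) and 109 CPM (Psma6) in WT, and beta subunits between 31.6 (Psmb3) and 145 CPM (Psmb4) in Acss2-KO and between 36.7 (Psmb3) and 181 CPM (Psmb1) in WT. Psmb6 has a processed pseudogene listed at 3.81 to 4.96 CPM in Acss2-KO and 4.03 to 6.77 CPM in WT, which can share its reads.

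**Figure D4:**
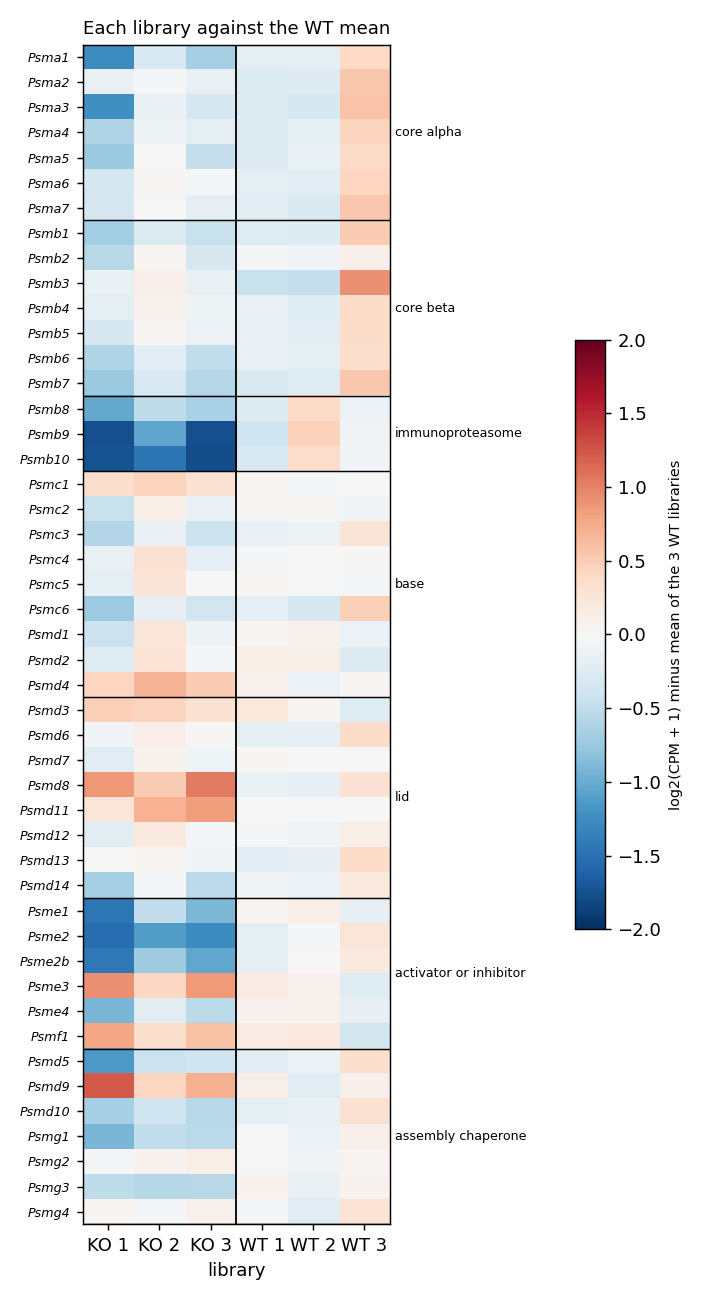
Each of the 47 genes (rows, by role) in each library (columns, Acss2-KO left, WT right), coloured by its log2(CPM + 1) minus the mean of the 3 WT libraries. WT replicate 3 is red across the core subunits, the 3 Acss2-KO libraries are blue for the immunoproteasome and PA28 alpha and beta, and they are red for Psmd4, Psmd8, Psmd11, Psme3 and Psmd9.

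In the regulatory particle 3 of 17 subunits were higher and none lower. That is 17.6% of it, against 36.5% of all tested genes called in either direction, 13.4% higher and 23.1% lower. The 17 summed to 2085, 2494 and 2300 CPM in Acss2-KO, against 2028, 1979 and 2139 CPM in WT, and their median log2 fold change was 0.00. Psmd8, the lid subunit Rpn12 that is needed to complete the lid (chromosome 7, 29174188 to 29180701), was at 331, 258 and 370 CPM in Acss2-KO, against 164, 161 and 221 CPM in WT. The groups did not overlap (log2 fold change 0.81, SE 0.22, limma adjusted p = 0.0212). Psmd11, the lid subunit Rpn6 that clamps the lid to the core (chromosome 11, 80428615 to 80473248), was at 118, 162 and 177 CPM in Acss2-KO, against 99.0, 99.7 and 99.0 CPM in WT (0.59, SE 0.20, limma adjusted p = 0.0429). The WT libraries were nearly equal and all 3 Acss2-KO libraries stood above them. Psmd4, the ubiquitin receptor Rpn10 between base and lid (chromosome 3, 95032694 to 95042614), was at 184, 218 and 193 CPM in Acss2-KO, against 144, 125 and 138 CPM in WT (0.54, SE 0.17, limma adjusted p = 0.0381). The groups did not overlap.

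On leaving out 1 library, log2 fold changes ran from 0.69 to 0.95 for Psmd8, from 0.47 to 0.77 for Psmd11 and from 0.47 to 0.59 for Psmd4, while calls were lost with fewer libraries. Without Acss2-KO replicate 3, WT replicate 1 or WT replicate 2 none of the 17 subunits was called higher, and leaving out Acss2-KO replicate 1, or Acss2-KO replicate 2, left 1 each. Without WT replicate 3, 2 were called (Psmd8 and Psmd4). Limma adjusted p-values in the fits in which they were not called ran from 0.0508 to 0.0976 for Psmd8, from 0.0731 to 0.176 for Psmd11 and from 0.0527 to 0.146 for Psmd4 on leaving out 1 library. With median-of-ratios scaling or quantile normalisation 5 of the 17 were higher, Psmc1 (limma adjusted p = 0.0467 and 0.0344) and the lid subunit Psmd3 (0.0452 and 0.0324) being the added ones. Of the ATPases Psmc1 to Psmc6 none passed without further scaling. Psmc1 was at 182, 193 and 174 CPM in Acss2-KO, against 146, 138 and 142 CPM in WT (log2 fold change 0.36, limma adjusted p = 0.114), and Psmc6 was at 59.7, 88.7 and 76.6 CPM in Acss2-KO, against 88.7, 79.3 and 139 CPM in WT (-0.42, limma adjusted p = 0.211). Psmd14, the deubiquitinase of the lid, was at 32, 50.6 and 35.5 CPM in Acss2-KO, against 48.5, 47.2 and 59.3 CPM in WT. Its groups overlapped (-0.40, limma adjusted p = 0.153), and it passed as lower without Acss2-KO replicate 2 (limma adjusted p = 0.0312).

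**Figure D5:**
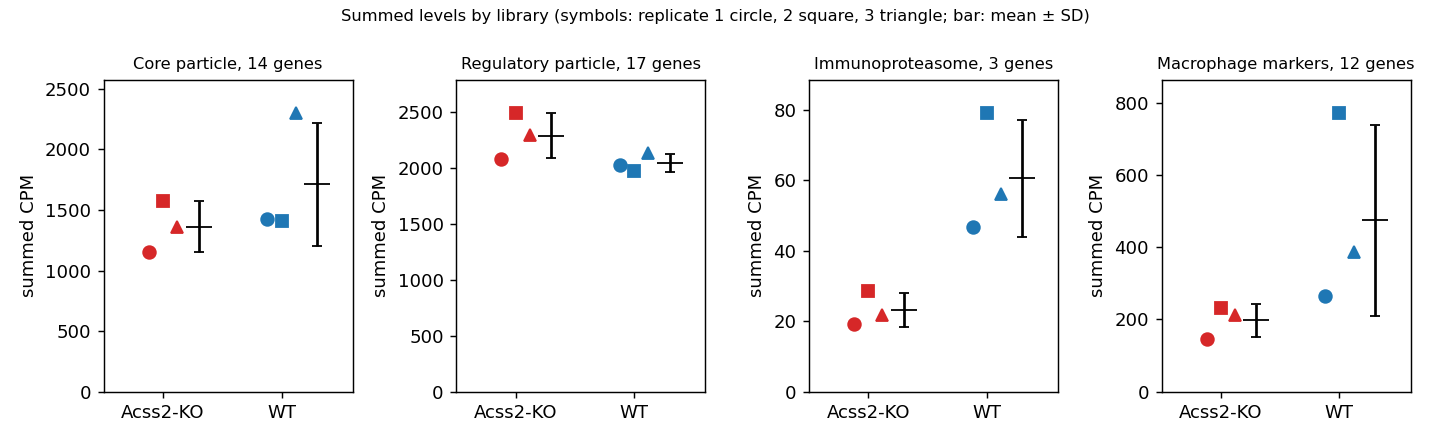
Summed CPM (y axis, from 0) of the 14 core subunits, the 17 regulatory particle subunits, the 3 immunoproteasome subunits and the 12 listed macrophage markers in each library, with the mean ± SD. Immunoproteasome sums lie between 19.1 and 28.5 CPM in Acss2-KO and between 46.8 and 79.0 CPM in WT, while core sums overlap except for WT replicate 3.

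Assembly chaperones hold subunits together while the particle is built and leave it afterwards. Of 7 listed, 1 was higher and 2 lower, or 42.9%, near the 36.5% of all tested genes. Psmg1, which pairs with Psmg2 in building the alpha ring (chromosome 16, 95979933 to 95990960), was at 9.51, 13.0 and 12.6 CPM in Acss2-KO, against 18.9, 17.3 and 20.3 CPM in WT (log2 fold change -0.65, SE 0.18, limma adjusted p = 0.0203). Its groups stood apart, while its partner Psmg2 overlapped (11.8 ± 0.742 CPM in Acss2-KO and 11.3 ± 0.512 CPM in WT, SD, n = 3 each, limma adjusted p = 0.798). Psmg3, another alpha ring chaperone, was at 5.98, 5.70 and 5.74 CPM in Acss2-KO, against 9.45, 8.0 and 9.45 CPM in WT (-0.55, SE 0.16, limma adjusted p = 0.0299). Psmg1 did not pass without Acss2-KO replicate 1 (0.0591), Acss2-KO replicate 3 (0.0572), WT replicate 1 (0.0673) or WT replicate 3 (0.0514), nor with quantile normalisation (0.0511). Psmg3 did not pass without any 1 library other than Acss2-KO replicate 2 (limma adjusted p between 0.0538 and 0.113), nor with the 3 scalings (0.0561 to 0.156). Among the base chaperones, Psmd5 was at 19.2, 32.2 and 32.9 CPM in Acss2-KO, against 37.5, 40.2 and 54.6 CPM in WT, without overlap (-0.65, limma adjusted p = 0.0629), and it passed without Acss2-KO replicate 2 (0.0438), as did the base chaperone Psmd10 (0.0419).

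Psmd9, a base chaperone, was the highest of the class by fold change, at 147, 84.5 and 103 CPM in Acss2-KO, against 67.7, 53.8 and 67.2 CPM in WT (log2 fold change 0.79, SE 0.23, limma adjusted p = 0.0263). Its value is uncertain. The deposited span of Psmd9 (chromosome 5, 123169413 to 123250131) covers the whole of Hpd, a tyrosine-degrading enzyme of hepatocytes that averaged 2830 CPM in Acss2-KO and 1910 CPM in WT (log2 fold change 0.57), and the sources used here do not say how reads in the overlap were assigned. The motif matches in a RefSeq promoter of Psmd9 lie between 123228031 and 123228167, past the deposited end of Hpd at 123182727. Psmd9 passed only without Acss2-KO replicate 2 among the fits that left out 1 library, and without the others its limma adjusted p was between 0.0551 and 0.0897. In all, 8 members have a deposited span that overlaps another listed gene. Among them, Psmd5 shares 573 bp with Cutal (log2 fold change -2.13) and Psme1 14 bp with Emc9 (-1.21). Psmb7 shares 6571 bp with Nek6, which went the other way (0.47). Whether reads in these overlaps bear on the values was not tested.

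Of genes that act with the proteasome but carry no Psm name, Nfe2l1 fell. Nfe2l1, whose product drives proteasome genes, was at 76.6, 77.7 and 82.1 CPM in Acss2-KO, against 215, 208 and 133 CPM in WT. All Acss2-KO libraries lay below the WT libraries (log2 fold change -1.19, SE 0.22, limma adjusted p = 0.0043), which held under all 17 alternatives. Its relative Nfe2l2 was at 93.7, 56.5 and 81.0 CPM in Acss2-KO, against 95.0, 85.6 and 62.7 CPM in WT, with overlap (-0.08, limma adjusted p = 0.809). Of 17 genes of NFE2L1 activation and the p97 segregase, 2 were higher and 1, Nfe2l1, lower (17.6%, below the 36.5% of all tested genes), with a median log2 fold change of -0.08. The p97 cofactor genes Ufd1l (0.56) and Faf1 (0.48) were the higher ones, and both lost their calls on leaving out Acss2-KO replicate 1 (limma adjusted p = 0.0626 for Ufd1l and 0.0745 for Faf1) and on leaving out Acss2-KO replicate 3, WT replicate 1 or WT replicate 2 (0.09 to 0.17). Faf1 also lost it without WT replicate 3 (0.053).

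Of 17 proteasome partners, 1 was higher and 2 lower (17.6%, below the 36.5% of all tested genes), with a median log2 fold change of 0.08. The count higher was 3 with median-of-ratios or upper-quartile scaling and 4 with quantile normalisation, with 1 lower in each. Pomp, the maturation factor on which beta rings are assembled, was at 53.8, 82.7 and 59.7 CPM in Acss2-KO, against 110, 110 and 175 CPM in WT. The groups did not overlap (-0.99, SE 0.25, limma adjusted p = 0.015), and the call was lost without Acss2-KO replicate 3 (0.0633). Adrm1, the ubiquitin receptor Rpn13 of the base, was at 95.0, 159 and 94.4 CPM in Acss2-KO, against 85.6, 62.7 and 61.8 CPM in WT (0.69, limma adjusted p = 0.0534). Its groups did not overlap, and it did not pass. The arsenite-inducible cofactor gene Zfand2a (0.52, limma adjusted p = 0.0413) and the ubiquitin ligase gene Ube3c (-0.56, limma adjusted p = 0.0425) passed with all libraries. Zfand2a did not pass without Acss2-KO replicate 3 or any 1 WT library (0.0582 to 0.178), and Ube3c did not pass without Acss2-KO replicate 1, Acss2-KO replicate 3, WT replicate 1 or WT replicate 2 (0.111 to 0.141), nor with the 3 other scalings (0.0558 to 0.0677).

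Of 11 tested genes for ubiquitin, its activating enzymes and conjugating enzymes, 4 were lower and none higher (36.4%, against 36.5% of all tested genes in either direction and 23.1% lower). Their median log2 fold change was -0.07. Uba6, the second ubiquitin-activating enzyme, was at 2.73, 3.51 and 3.63 CPM in Acss2-KO, against 8.69, 7.46 and 7.31 CPM in WT (-1.04, SE 0.19, limma adjusted p = 0.00416). The conjugating enzymes Ube2n (-0.76), Ube2l3 (-0.77) and Ube2r2 (-0.54, limma adjusted p = 0.0429) were lower as well, and Ube2l3 did not pass without Acss2-KO replicate 3 (limma adjusted p = 0.0777), WT replicate 1 (0.0595) or WT replicate 2 (0.0649). The polyubiquitin gene Ubb was at 338, 304 and 630 CPM in Acss2-KO, against 568, 313 and 422 CPM in WT, and its groups overlapped (-0.07, limma adjusted p = 0.883). Uba1, the main activating enzyme, averaged 185 ± 9.54 CPM in Acss2-KO and 187 ± 56.7 CPM in WT (SD, n = 3 each, limma adjusted p = 0.937).

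By the authors' deposited table, which has its own log2 fold changes and adjusted p-values, 3 members were higher (Psmd8, Psmd9 and Psme3) and 4 lower (Psmb9, Psmb10, Psme2 and Psme2b) past 0.05. All 7 were called here with the same sign. The log2 fold changes of the members in the authors' deposited table lay a median of 0.14 above those computed here.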

How the data were processed

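Total RNA of liver was made into TruSeq RNA-seq libraries, per the labels' protocols. The submitters' processing notes name Bowtie 0.12.2 and the build mm8 without a role. The roles of these, the annotation, the counter and any use of strand were not given in those sources. The per-library values deposited by the authors are log2 CPM with 2 decimals, with anything under 1 CPM listed at 0, as the values themselves show: a library sums to between 997061 and 997856 CPM. Log2 fold changes and p-values of the authors' own were deposited too. Coordinates are as deposited: the starts of the 47 members differ from GRCm38.p6 by 8 bp in the median, so they are taken as GRCm38, not mm8.

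CPM were computed back from the logs, taking each listed 0 as 1 CPM. Depth was estimated from the steps between low values. Genes averaging 5 CPM or more were tested on log2(CPM + 1) in R 4.3.3, using limma 3.58.1 with its robust and trend options (statmod 1.5.0), no covariate and no further scaling. The fit was tested on simulated data. Exon lengths are those of GENCODE M1, found for 46 of the 47 members, and join all annotated exons of a gene. Alternatives were other pseudocounts, scalings, filters and limma settings, each library left out in turn, WT replicate 2 and Acss2-KO replicate 1 left out together, and the replicate number as a block.

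The members and gene lists were chosen with earlier results of these data known. By rule the text names Acss2, Nfe2l1, Nfe2l2, the catalytic subunits, each member past the threshold, the members with the highest and lowest log2 fold change of a class, and up to 3 changed genes with the smallest p from each list. Psma3, Psma6, Psmb1, Psmb4, Psmc1, Psmd3, Psmd10, Psme4, Psmf1, Psmg2, Psmg4, Irf1, Tap1, Adrm1, Ube2r2, Ubb, Uba1, Hpd, Adgre1, Alb, Apoa1, Fgb, Ahsg, Hnf4a, Cd79b and Nkg7 were named outside this rule, after their values were seen.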

Additional observations from a re-analysis of the deposited data

How the results depend on the processing

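Of the log2 fold changes of single named genes, 681 of the values under an alternative kept their direction and side of the threshold, 106 no longer passed, 5 newly passed and 13 changed sign. Counting error bears on the lowest genes tested, where 5 CPM stands for 109 to 154 reads. Where a call was lost on leaving out libraries, fewer samples were tested, and the cause was not tested otherwise.

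The count of members higher (5) was 8 with median-of-ratios scaling, 8 with quantile normalisation and 0 without the pair Acss2-KO replicate 1 and WT replicate 2, and ranged from 0 to 4 on leaving out 1 library. The count lower (8) was 5 with quantile normalisation, 2 at a minimum of 20 CPM, where fewer members were tested, and 4 with both libraries left out, and ranged from 4 to 13. Regulatory particle subunits higher (3) were 5 with median-of-ratios scaling, 5 with quantile normalisation and 0 with both left out, and ranged from 0 to 2. Immunoproteasome subunits lower (3) ranged from 2 to 3. With both libraries left out, limma adjusted p was 0.302 for Psmb8, 0.102 for Psme1, 0.0724 for B2m and 0.088 for Psme3. Over all genes, 1252 higher and 2161 lower became 741 and 1112 at a minimum of 20 CPM and 702 and 1291 with both left out, and ranged from 525 to 1616 and from 1192 to 2381. Over all tested genes the median log2 fold change (-0.12) was -0.011 with median-of-ratios scaling, -0.039 with upper-quartile scaling, 0.019 with quantile normalisation and -0.075 at a minimum of 20 CPM, and ranged from -0.142 to -0.096; that of the members ranged from -0.293 to -0.085. The differences in log2 ratio ranged from -0.897 to -0.337 for Psmb8 over Psmb5, from -1.437 to -0.882 for Psmb9 over Psmb6 and from -1.562 to -0.957 for Psmb10 over Psmb7.

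Signs turned for genes near 0. Nfe2l2 was at 0.029 with median-of-ratios scaling, 0.000207 with upper-quartile scaling, 0.033 with quantile normalisation, 0.123 without Acss2-KO replicate 2 and 0.041 without WT replicate 1, and ranged from -0.255 to 0.123 on leaving out 1 library. Psma2 was at 0.00485 with median-of-ratios scaling, 0.023 with quantile normalisation and 0.161 without WT replicate 3 (range -0.245 to 0.161). Psmb3 was at 0.050, 0.021 and 0.047 with the 3 scalings in the order of the first list and 0.394 without WT replicate 3. Psmb5 was at 0.058 without WT replicate 3 (range -0.239 to 0.058).

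Same-numbered libraries did not deviate together (r = -0.102, -0.14 and 0.09 for numbers 1, 2 and 3), and pairs of unlike number ranged from -0.146 to 0.175. With 3 libraries per genotype these values cannot tell whether same-numbered libraries shared more than the number. With the replicate number as a block, 3 members and 1 regulatory particle subunit were higher; Psma1 (limma adjusted p = 0.0326) and Psmd5 (0.0261) passed, and Psmd4 (0.0756), Psmd11 (0.0552), Psmg3 (0.0566), Faf1 (0.0685), Ube3c (0.0517) and Zfand2a (0.0539) did not.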

Other observations

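Markers of other liver cells did not all follow the macrophage markers. Of 6 sinusoidal endothelial markers, 1 was higher and 1 lower (33.3%, against 36.5% of all tested genes). Lyve1, a hyaluronan receptor, averaged 50.1 ± 21.8 CPM in Acss2-KO and 7.57 ± 3.44 CPM in WT (SD, n = 3 each, log2 fold change 2.55, limma adjusted p = 0.0033), and the lectin gene Clec4g averaged 27.5 ± 5.99 CPM in Acss2-KO and 56.4 ± 11.5 CPM in WT (-1.01, limma adjusted p = 0.00851). Of 5 stellate cell markers, 2 were lower and none higher (40.0%, against 36.5% of all tested genes in either direction and 23.1% lower). Lrat, the enzyme that stores retinol as ester, averaged 4.64 ± 0.647 CPM in Acss2-KO and 19.1 ± 4.41 CPM in WT (-1.81, limma adjusted p = 0.000783), and Colec11 had a log2 fold change of -1.06. Of 7 hepatocyte markers, 2 were lower and none higher (28.6%, against 36.5% of all tested genes in either direction and 23.1% lower). The lower ones were Ttr, the carrier transthyretin (-1.80), and Serpina1c, an antitrypsin gene (-1.0). The other 5 had log2 fold changes above 0 and did not pass: Alb, albumin, 0.19, Apoa1 0.46, Fgb 0.23, Ahsg 0.42 and Hnf4a 0.34. The median over the 7 was 0.23. The genotypes did not overlap for 5 of the 7 (71.4%, against 52.9% of all tested genes). Of these, Fgb, Ahsg and Hnf4a were higher in Acss2-KO, and Ttr and Serpina1c were lower.

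Among the macrophage markers, Cd5l averaged 11.7 ± 9.0 CPM in Acss2-KO and 89.2 ± 55.6 CPM in WT, Lyz2 15.0 ± 5.46 CPM in Acss2-KO and 50.6 ± 22.0 CPM in WT, and Clec4f, a Kupffer cell lectin, 37.9 ± 12.1 CPM in Acss2-KO and 85.0 ± 38.9 CPM in WT (SD, n = 3 each). Limma adjusted p-values were 0.029, 0.0169 and 0.0424. Without WT replicate 2 they were 0.0854, 0.0519 and 0.1. Cd5l also missed the threshold without Acss2-KO replicate 3 (limma adjusted p = 0.0805) or WT replicate 1 (0.0567), and Lyz2 without WT replicate 3 (0.0627). Clec4f also missed it without Acss2-KO replicate 1 (0.105), Acss2-KO replicate 3 (0.0776) or WT replicate 3 (0.102), and with the 3 other scalings (0.0559 to 0.0599). Cd5l was at 3.18, 21.1 and 10.8 CPM in Acss2-KO, against 46.9, 152 and 68.6 CPM in WT, with WT replicate 2 the highest.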
